A study of Mus musculus with 48 samples.

Results

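The joining of the Jκ1 coding end (CE) was compared between 3 libraries of G0-G1-arrested and 3 of cycling wild-type (WT) cells, 6 of the 48 libraries in the series. The 6 were chosen by their labels (genotype WT, bait JK1CE, treatment "STI-571 + DMSO" or "Cycling"), and each is an HTGTS-JoinT-seq library, which lists the sequences (preys) found joined to a fixed bait break. All 6 came from mouse vAbl pro-B cells, progenitor B cells transformed with the Abelson kinase, of genotype WT and derived from 1 clone. The arrested cells received 3 µM STI-571, an Abl kinase inhibitor, for 96 h together with DMSO, the vehicle of the inhibitors used elsewhere in the study. The cycling cells were dividing cells given no STI-571, and their label names no DMSO. Because STI-571 both stops division and induces the RAG1/2 recombinase in these lines, arrest and recombinase induction cannot be told apart here. The libraries are genomic DNA, so the labelled cell type could not be checked against expressed markers. Genomic DNA also keeps earlier joints, and the paper checked its gene-deleted lines for recombination from before the assay. When the joints of the cycling libraries were made cannot be told, and arrested cells can carry earlier joints too. Usage and joint structure of cycling cells below are therefore those of the joints present, whenever made.

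V-J recombination starts when RAG1/2 cuts between a gene segment and its recombination signal, a heptamer and a nonamer separated by a spacer. Each cut leaves a hairpin-sealed coding end on the gene side and a blunt signal end on the other. The hairpin is opened, often off center, so that the opened coding end can carry a short palindromic copy of its own last bases (P nucleotides), and the ends are then trimmed and joined, in WT cells mostly by nonhomologous end joining. In the mouse Igκ locus, Vκ segments lie in both orientations relative to Jκ: those in the same orientation as Jκ join by deletion (DEL) and those in the opposite orientation by inversion (INV). A coding end joined to a signal end is a hybrid joint.

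The signals beside the breaks that carry the results below were read from the reference (NCBIM37, the assembly called mm9). Each line gives the last 20 coding bases in lower case, then the heptamer in capitals, the spacer in lower case and the nonamer in capitals, 5′ to 3′ toward the signal. The Jκ1 signal is the bait's own. Igkv1-88, Igkv8-24, Igkv12-46 and the unannotated site ending at chr6:69829344 took a larger share of junctions in arrested cells, and Igkv3-2 was the most used site there. Igkv3-7, Igkv1-135, Igkv2-112 and the unannotated site ending at chr6:69994106 took a smaller share.
Jκ1, chr6:70672517-70672575, minus strand: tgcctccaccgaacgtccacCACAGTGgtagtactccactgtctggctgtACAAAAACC
Igkv3-2, chr6:70649042-70649089, plus strand: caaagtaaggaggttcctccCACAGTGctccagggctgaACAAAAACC
Igkv1-88, chr6:68812231-68812278, minus strand: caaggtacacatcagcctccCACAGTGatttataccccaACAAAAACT
Igkv8-24, chr6:70166824-70166871, minus strand: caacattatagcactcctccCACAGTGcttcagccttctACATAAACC
Igkv12-46, chr6:69714489-69714536, minus strand: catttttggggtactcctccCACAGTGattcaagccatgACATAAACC
Unannotated site, chr6:69829316-69829363, minus strand: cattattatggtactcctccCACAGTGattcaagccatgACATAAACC
Igkv3-7, chr6:70558011-70558058, plus strand: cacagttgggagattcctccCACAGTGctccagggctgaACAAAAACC
Igkv1-135, chr6:67560483-67560530, plus strand: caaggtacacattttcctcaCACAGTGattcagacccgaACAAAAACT
Igkv2-112, chr6:68170681-68170728, plus strand: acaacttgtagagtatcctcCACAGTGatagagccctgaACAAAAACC
Unannotated site, chr6:69994078-69994125, minus strand: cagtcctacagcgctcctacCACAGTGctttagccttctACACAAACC

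Arrested libraries held 385847, 370032 and 370027 junctions and cycling libraries 22717, 30320 and 32108, each from 500000 read pairs. Junctions at Vκ break sites made up 72.4%, 68.9% and 69.2% of read pairs in arrested cells (V-J efficiency) and 4.03%, 5.45% and 5.88% in cycling cells. The exact permutation test of 3 against 3 libraries cannot go below p = 0.1 (two-sided), so below a measure is called different where the 2 groups' libraries did not overlap, which is when it reaches p = 0.1. Reads carried no molecular identifiers and copies were kept: the Vκ joints fell into 11937, 11125 and 11506 distinct joints in arrested and 1657, 1589 and 1670 in cycling libraries, where joints alike in prey position, strand, bait end and length of overlap or insertion were counted once. Intervals from counts would therefore cover counting error only. Shares below are of all junctions, copies included, unless distinct joints are named. Thinned to the cycling mean of 25619 Vκ junctions, arrested libraries held 4375, 4181 and 4286 distinct joints, so some shares of distinct joints are also given at that depth. They then held 5.86, 6.13 and 5.98 copies per distinct joint, against 12.2, 17.2 and 17.6 in cycling libraries. Thinning thus matched the number of junctions, not that of distinct joints or copies. Of 3329 distinct Vκ coding joints seen in any cycling library, 86.4% were also seen in an arrested library, and they were 15.2% of the 18921 seen in arrested libraries.

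Along the locus, arrested cells drew a larger share of their Vκ junctions from the far, mostly DEL segments 2.0 to 3.0 Mb from Jκ1 and a smaller share from segments 1.0 to 1.5 Mb away, all tested sites of which were INV. At 2.5 to 3.0 Mb the share was 11.5%, 11.6% and 12.2% in arrested and 6.93%, 6.84% and 7.36% in cycling libraries, and at 2.0 to 2.5 Mb it was 10.6%, 10.8% and 11.1% against 8.29%, 8.52% and 7.60%. At 1.0 to 1.5 Mb it was 18.9%, 19.4% and 18.7% against 21.9%, 24.3% and 25.8%. The lowest library of the higher group lay above the highest of the other in all of these (exact permutation p = 0.1 each).
The end of the locus beyond 3.0 Mb went the other way, at 2.39% ± 0.0440 in arrested and 4.35% ± 0.292 in cycling cells (SD, n = 3 each). Only 1 tested site lies there, Igkv1-135. The nearest 0.5 Mb held 21.03% ± 0.0788 of arrested and 23.98% ± 1.16 of cycling junctions, without overlap, but with each distinct joint counted once the difference was 0.0565 percentage points and the groups overlapped. The bins at 0.5 to 1.0 Mb (23.1% against 21.3%) and 1.5 to 2.0 Mb (11.9% against 11.1%) also no longer separated when distinct joints were counted. The DEL share of all Vκ junctions was 40.4%, 40.8% and 42.1% in arrested and 40.4%, 38.4% and 37.2% in cycling libraries, which overlapped.

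**Figure D1:**
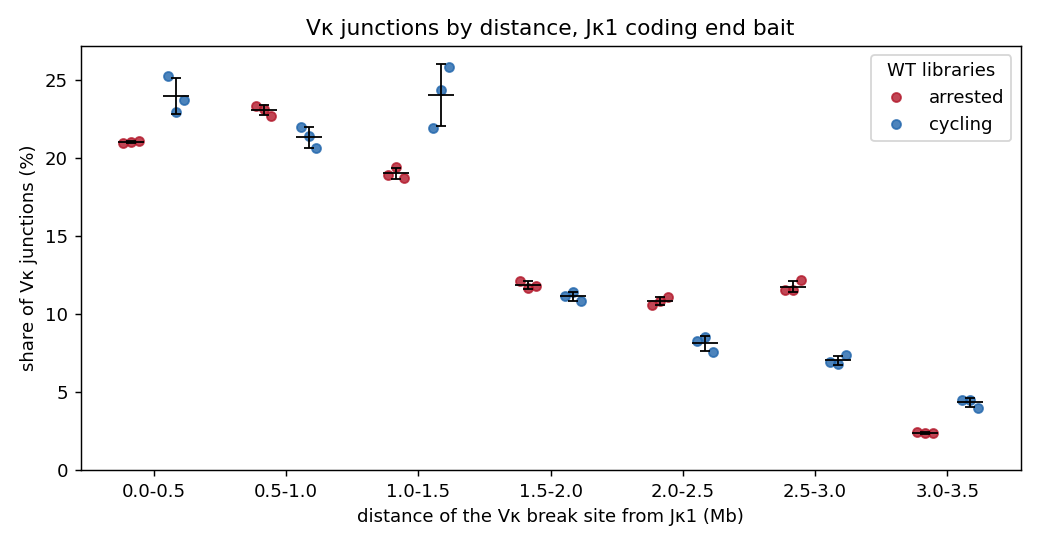
Share of Vκ junctions (%) by distance of the break site from Jκ1 in 0.5-Mb bins; points are the 3 libraries of each group and black marks the mean ± SD. The arrested libraries sit above the cycling ones at 2.0 to 3.0 Mb and below them at 1.0 to 1.5 Mb.

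At single break sites, usage was taken as junctions per 1000 Vκ junctions of a library. Of 138 sites, 97 had a mean of at least 1 per 1000 and were tested; they held at least 98.8% of the Vκ junctions of every library. With limma (Benjamini-Hochberg adjusted p below 0.05), 34 sites changed, which is 35.1% of those tested: 18 rose in arrested cells (18.6%) and 16 fell (16.5%). The groups did not overlap at 65 of the 97 sites (67%), the 34 among them. Fold changes are on the scale of log2(usage + 0.1), which understates changes of little-used sites. Arrested libraries resembled each other closely, with a median SD across sites of 0.0859 on the log2 scale against 0.441 in cycling libraries, where fewer junctions stood behind each value. Across the 97 sites, Spearman's rho between libraries was 0.987 to 0.995 within the arrested group, 0.853 to 0.894 within the cycling group and 0.722 to 0.779 between groups, given as a description because sites are not independent. The limma fit took 1 SD per site for both groups, so the 34 calls assume an equal SD, which the libraries did not show. The count of calls depended on the balance of groups. Without arrested replicate 1, 14 sites passed, and 3 sites passed without replicate 2 or without replicate 3, each changed in the same direction as with all 6 libraries. Without cycling replicate 1, 2 or 3, the count rose to 48, 46 and 41. With distinct joints counted, 29 of 109 sites passed, 20 of them among the 34. Of the 34, 33 kept their direction and 30 had a log2 change of smaller size.

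**Figure D2:**
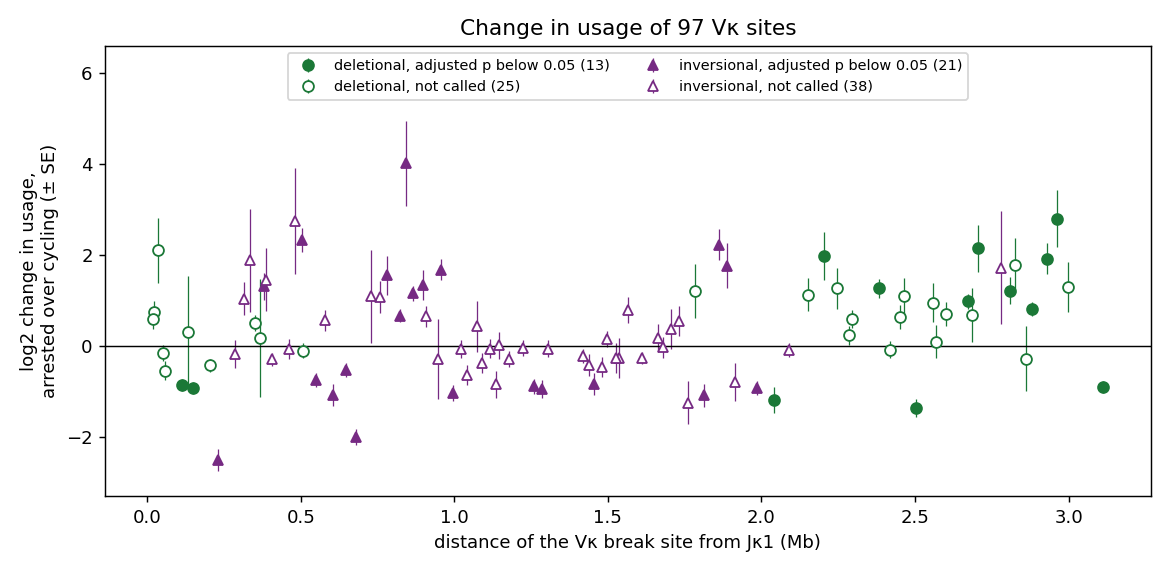
Log2 change in usage (arrested over cycling, ± SE from limma) of the 97 tested Vκ sites against distance from Jκ1 (Mb); circles are DEL (deletional) and triangles INV (inversional) sites, and filled symbols passed the adjusted threshold. Filled symbols are most numerous at 0.5 to 1.0 Mb, with 7 above and 5 below 0; 6 lie above and 1 below 0 at 2.5 to 3.0 Mb, and none lies above 0 at 1.0 to 1.5 Mb.

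The largest rise was at the unannotated INV site ending at chr6:69829344, which was used at 12.9, 13.2 and 13.2 per 1000 in arrested libraries and 0.843, 2.75 and 0.102 in cycling libraries. Its log2 change was 4.02 ± 0.93 (SE; limma adjusted p = 0.0218). The arrested libraries hardly differed, while the cycling values rested on 17, 75 and 3 junctions from 3, 3 and 1 distinct joints. With distinct joints counted the log2 change was 2.58. No annotated gene ends there; its last 100 coding bases differ from those of Igkv12-44 at 10 positions.
Igkv8-24 (ENSMUSG00000076583.1) was used at 21.5, 23.3 and 22.7 per 1000 in arrested and 6.45, 3.59 and 3.64 in cycling libraries, a log2 change of 2.33 ± 0.26 (adjusted p = 0.00465). Igkv1-88 (ENSMUSG00000076535.1), among the 6 most used sites in arrested cells, rose from 4.02, 4.88 and 9.79 to 27.5, 27.6 and 27.1 per 1000 (log2 change 2.23 ± 0.34, adjusted p = 0.00764). Both groups stood apart at these 2 sites, and with distinct joints counted the log2 changes were 1.42 for Igkv8-24 and 0.66 for Igkv1-88.
Igkv12-46 (ENSMUSG00000076564.1) rose from 10.4, 7.04 and 6.08 to 25.3, 25.3 and 23.5 per 1000 (log2 change 1.68 ± 0.23, adjusted p = 0.00764), a log2 change of 0.68 with distinct joints. The other 6 of the 10 largest rises were Igkv1-132, Igkv1-122, Igkv14-100, Igkv14-130, Igkv12-89 and Igkv12-38, with log2 changes from 1.56 to 2.81, or 0.75 to 2.36 with distinct joints. They are thinly covered in cycling cells: Igkv1-132 was at 1.79, 0.330 and 0.306 per 1000 there, from 36, 9 and 9 junctions. Igkv1-132 and Igkv14-100 averaged 0.807 and 0.960 per 1000 in cycling cells, so they were tested only through the group where they were high.

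Among the falls, the largest was at the unannotated INV site ending at chr6:70443358, with 0.752, 0.528 and 0.599 per 1000 in arrested and 3.17, 3.78 and 5.34 in cycling libraries (log2 change -2.51 ± 0.24, adjusted p = 0.00321). Its arrested values lie below the mean of 1 per 1000 needed for testing, so it was tested only through the group where it was high. The unannotated INV site ending at chr6:69994106 fell from 18.8, 20.6 and 19.2 to 4.04, 5.76 and 4.82 per 1000 (log2 change -1.99 ± 0.18, adjusted p = 0.00321). Its cycling values rested on 379, 562 and 565 junctions from 22, 22 and 21 distinct joints, and with distinct joints counted its log2 change was -0.84, against -1.36 for the site ending at chr6:70443358.
Igkv2-112 (ENSMUSG00000076518.2) fell from 8.83, 11.8 and 8.16 to 3.15, 3.95 and 3.81 per 1000 (log2 change -1.36 ± 0.20, adjusted p = 0.00764; -0.86 with distinct joints). It was 1 of 2 sites among the 26 tested between 2.0 and 3.0 Mb to fall, where 8 rose (over all 97 tested sites 18.6% rose and 16.5% fell). The other that fell was Igkv10-95, with a log2 change of -1.18 ± 0.28. Of the 8, Igkv1-132 and Igkv14-100 were tested only through the arrested group, where they were high, as was Igkv14-126 among the 26. The tally of rises there therefore rests in part on the filter. Igkv4-86, Igkv8-30, Igkv5-48, Igkv4-59, Igkv19-93 and Igkv3-10 made up the rest of the 10 largest falls, with log2 changes from -1.08 to -0.91, or -0.98 to -0.34 with distinct joints. For Igkv10-95 the change was 0.01 when distinct joints were counted, so its direction did not hold.

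The order of the most used sites differed between the states. In arrested cells Igkv3-2 (ENSMUSG00000076602.1), one of the segments nearest Jκ1, led at 34.9, 34.6 and 35.7 per 1000, followed by Igkv3-12, Igkv12-44, Igkv4-50, Igkv1-88 and Igkv3-7 at group means close to each other. In cycling cells Igkv3-2 stood at 28.6, 18.7 and 16.7 per 1000, without overlap, but its log2 change of 0.75 ± 0.23 missed the threshold (limma adjusted p = 0.0533) and was 0.00074 with distinct joints counted.
Cycling cells instead used Igkv3-7 (ENSMUSG00000076598.2) most, at 47.5, 47.5 and 50.5 per 1000 against 26.4, 25.4 and 28.2 in arrested cells (log2 change -0.86 ± 0.13, adjusted p = 0.00764). The next was Igkv1-135 (ENSMUSG00000076502.1), the farthest tested segment, at 44.0, 45.0 and 39.4 against 23.4, 22.8 and 22.7 (log2 change -0.89 ± 0.14, adjusted p = 0.00764). Igkv3-12, Igkv8-27, Igkv3-10 and Igkv6-32 completed the cycling top 6, and all but Igkv3-12 (log2 change -0.42 ± 0.14, adjusted p = 0.0609) fell in arrested cells. Over all 97 tested sites 16.5% fell. Because the 6 were picked by their high cycling usage, their tally of falls carries no test. With distinct joints the log2 changes of Igkv3-7 and Igkv1-135 were -0.76 and -0.85. Igkv4-50, among the 6 most used sites of arrested but not of cycling cells, was at 27.9, 28.2 and 26.4 per 1000 against 32.2, 22.1 and 32.8, with overlap. Use was more even in arrested cells: the 10 most used sites held 27.4% ± 0.211 of Vκ junctions against 34.8% ± 0.442, and 22 sites held 50% of the junctions in every arrested library against 18, 18 and 19 sites in cycling libraries. Near-identical copies may share reads: 55 of the 97 tested sites, 8 of the 28 named ones among them, have another site within 5 differences over their last 100 coding bases, which bears on the counts by distance, family and nonamer too, and those of Igkv4-59 equal those of Igkv4-68.

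**Figure D3:**
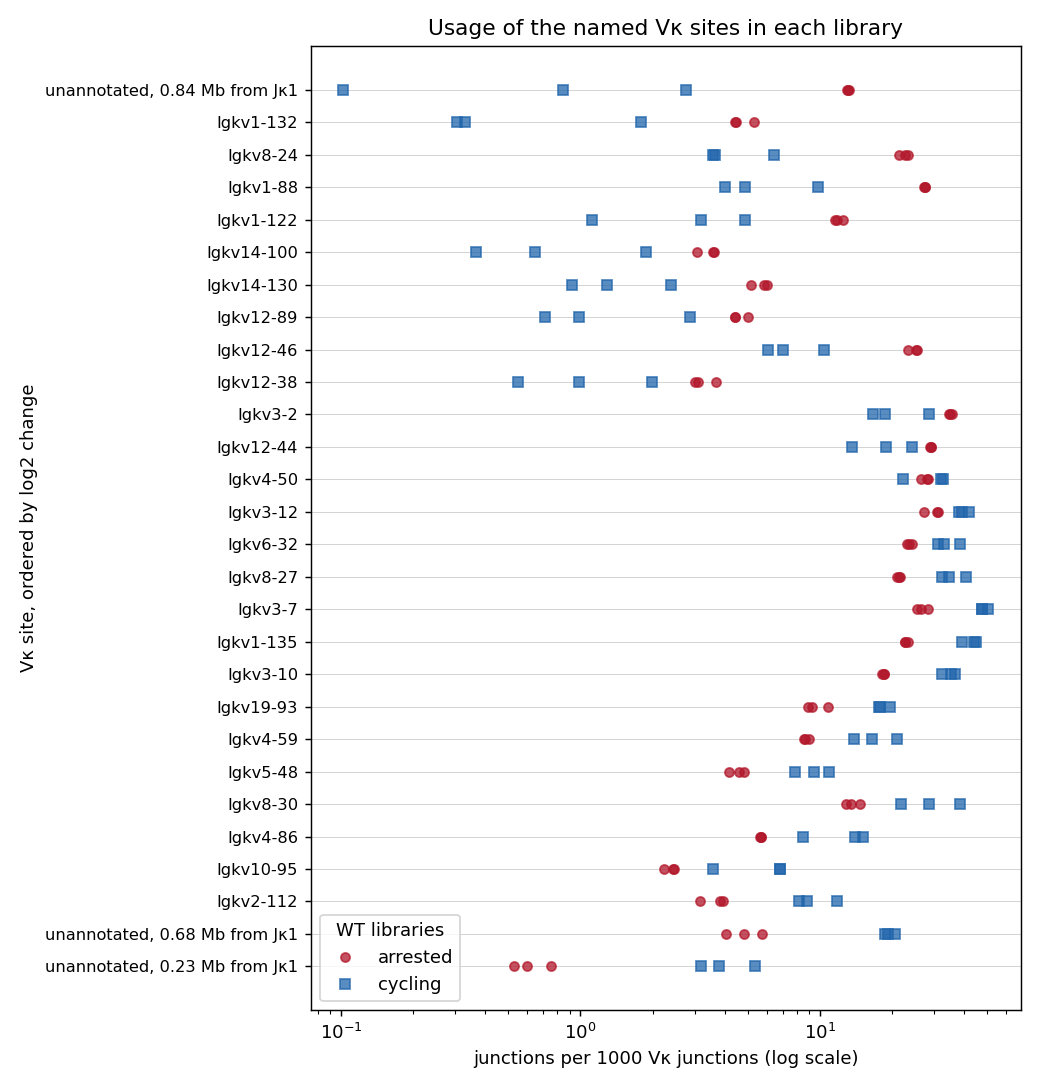
Usage of the 28 named Vκ sites in each library (junctions per 1000 Vκ junctions, log scale), ordered by log2 change; circles are arrested and squares cycling libraries. The arrested points lie close together at each site, and the cycling points spread most where usage is low.

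Counts by group are to be read against the 18.6% of all 97 tested sites that rose and the 16.5% that fell. By gene family, the 6 tested Igkv12 sites included 4 that rose and 0 that fell (median log2 change 1.36, against 0.18 over all 97 sites), and together they took 8.67%, 8.59% and 8.23% of Vκ junctions in arrested and 4.84%, 3.57% and 3.61% in cycling libraries. Of 4 Igkv14 sites 2 rose (median 1.85), of 3 Igkv9 sites 2 rose (median 0.99), and of 7 Igkv1 sites 3 rose and 1 fell (median 1.29). Igkv14-100 and Igkv1-132, which are among these rises, and Igkv14-126 averaged 0.960, 0.807 and 0.658 per 1000 in cycling cells. They were tested only through the arrested group, where they were high, so the Igkv14 and Igkv1 tallies and medians rest in part on the filter. The largest family, Igkv4, had 0 of 22 sites rise and 3 fall (median -0.13), and its summed share was 21.5% ± 0.258 in arrested and 25.6% ± 1.13 in cycling cells. Igkv3 had 0 of 8 rise and 2 fall, with a summed share of 13.8% ± 0.257 against 16.99% ± 0.811. The summed shares of these 2 families did not overlap between groups, while the count of falls in Igkv4 was near that over all sites. Of 8 Igkv8 sites 2 rose and 2 fell (median 0.37), of 7 Igkv6 sites 0 rose and 1 fell (median -0.06), and of 5 Igkv5 sites 2 rose and 1 fell (median 0.67). Family medians include copies and were not computed for distinct joints. With distinct joints, log2 changes ran from 0.064 to 1.14 over Igkv12 (0.65 to 1.77 with copies) and 0.57 to 1.40 over Igkv14 sites (1.10 to 1.99). They ran from 0.31 to 1.79 over Igkv9 (0.81 to 1.72) and -0.85 to 2.36 over Igkv1 sites (-0.89 to 2.81). The median over all 97 sites was then 0.24.
By orientation, 8 of 38 DEL sites rose and 5 fell (median 0.66), and 10 of 59 INV sites rose and 11 fell (median -0.05), counts near the 18.6% and 16.5% over all sites. By heptamer, 17 of 86 sites with the consensus CACAGTG rose and 14 fell, again near those shares, and 1 of 11 sites with another heptamer rose and 2 fell. The 15 tested sites beside no annotated gene held 10.9% ± 0.0574 of arrested and 12.5% ± 0.790 of cycling junctions, with 2 that rose and 3 that fell.

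The sites were also grouped by nonamer, a split that was looked at after the values were seen and so carries no test; over all tested sites 18.6% rose and 16.5% fell. Of 24 tested sites with the nonamer ACATAAACC (24.7% of tested sites), which Igkv8-24, Igkv12-46 and the site ending at chr6:69829344 carry, 11 rose and 1 fell, with a median log2 change of 1.19. Among these sites, Igkv14-100, which rose, and Igkv14-126 were tested only through the arrested group, with means of 0.960 and 0.658 per 1000 in cycling cells. Of 37 sites with ACAAAAACC (38.1%), which Igkv3-2, Igkv3-7 and Igkv2-112 carry, 0 rose and 8 fell, with a median of -0.25. Of 11 sites with ACACAAACC (11.3%), which the site ending at chr6:69994106 carries, 1 rose and 3 fell, with a median of 0.24 (0.79 with distinct joints), and they took 11.1% ± 0.201 of arrested and 14.3% ± 0.658 of cycling junctions. The ACATAAACC sites together took 21.9%, 21.8% and 21.7% of Vκ junctions in arrested and 11.7%, 10.8% and 10.2% in cycling libraries, and the ACAAAAACC sites took 42.1%, 42.5% and 42.5% against 51.8%, 52.5% and 54.3%. The medians were 1.21 in DEL and 1.16 in INV sites for the first nonamer and -0.16 and -0.25 for the second, and with distinct joints counted they were 0.60 and -0.20. Of the Igkv12, Igkv14 and Igkv9 sites tested all but Igkv12-89 carry the first nonamer, and they make up 12 of its 24 sites, so family and nonamer are partly confounded. Of the other 12, 4 rose and 1, Igkv10-95, fell.

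With copies included, direct joints were the main class of Vκ joint in both states, and insertions of 3 bp and more took a larger share in arrested cells. In the joints printed here the Jκ1 end is read first and the Vκ end follows, with inserted or overlapping bases in capitals. They are the most common example of a direct joint, of a 1-bp overlap (a base that could belong to either end), of a 2-bp insertion, and, among insertions of at least 10 bp that were also found in another Vκ coding end and seen in both groups, the most common of those.
Direct joint to Igkv3-2: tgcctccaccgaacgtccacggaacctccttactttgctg
1-bp overlap with Igkv8-27: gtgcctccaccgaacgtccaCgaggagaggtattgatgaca
2-bp insertion before Igkv3-12: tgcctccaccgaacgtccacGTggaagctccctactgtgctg
18-bp insertion before Igkv8-21: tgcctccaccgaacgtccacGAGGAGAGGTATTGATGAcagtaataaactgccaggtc

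Direct joints made up 70.4%, 70.75% and 71.1% of Vκ coding joints in arrested and 71.7%, 72.8% and 71.5% in cycling libraries. Joints with overlap made up 14.4% ± 0.227 and 15.6% ± 0.506, most of them of 1 bp (12.4% ± 0.239 and 13.4% ± 0.112), and joints with an insertion 14.9% ± 0.149 and 12.4% ± 0.378. None of these 3 classes overlapped between groups, though each differed by under 3 percentage points. The direct share overlapped once insertions over 5 bp were left out (difference -0.442 percentage points). Counted as distinct joints the groups lay further apart, with direct joints at 27.2% against 50.9% and insertions at 63.7% against 37.0%. With arrested libraries thinned as well, direct joints were at 45.4% against 50.9% and insertions at 42.5% against 37.0%, both still without overlap.
Insertions of 1 to 2 bp overlapped between groups, at 10.0%, 10.2% and 9.96% against 10.1%, 9.51% and 10.6% (difference -0.0182 percentage points, exact permutation p = 1). Insertions of 3 to 5 bp made up 3.01%, 2.98% and 3.07% of arrested and 1.56%, 1.94% and 1.37% of cycling joints, and longer ones 2.00%, 1.63% and 1.76% against 0.504%, 0.637% and 0.860%. Both longer classes were higher in every arrested library. With distinct joints and thinned arrested libraries, insertions of 1 to 2 bp (24.6% against 21.9%) and of 3 to 5 bp (8.94% against 6.13%) were higher in arrested cells without overlap, and those over 5 bp overlapped at 8.97% in both.

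Many short insertions read as a copy of the Jκ1 end. Folding an untrimmed Jκ1 end back on itself adds G, GT, GTG or GTGG, the sequence read from its last bases ccac. G was 39.7% ± 0.383 of 1-bp insertions in arrested and 34.6% ± 3.03 in cycling libraries, without overlap, and GTG 45.3% ± 1.21 and 53.1% ± 17.2 of 3-bp insertions, with overlap. GT was 65.5%, 66.5% and 64.4% of 2-bp insertions in arrested and 63.8%, 67.7% and 73.1% in cycling libraries, which overlapped. GTGG was 71.6%, 73.9% and 72.9% of 4-bp insertions in arrested and 51.1%, 65.1% and 60.3% in cycling libraries, without overlap. These shares were counted by sequence alone, whatever the loss from the Jκ1 end. That end was untrimmed in 60.7% ± 0.624 of arrested and 58.7% ± 8.66 of cycling 1 to 4-bp insertions, with overlap. Insertions of 1 to 4 bp that could be made wholly of such palindromic copies of untrimmed Jκ1 or Vκ ends made up 64.3% ± 0.796 and 61.9% ± 6.63 of that length class, with overlap. Of distinct 1 to 4-bp insertions, here also told apart by the inserted sequence, they were 22.6% ± 0.699 and 34.0% ± 0.977, lower in arrested libraries without overlap. This share was not computed with thinned arrested libraries.
Insertions of at least 10 bp numbered 5683, 4307 and 4694 in arrested and 80, 127 and 200 in cycling libraries. Of these, 82.8%, 81.8% and 82.5% in arrested and 63.8%, 82.7% and 77.0% in cycling libraries were found letter for letter in the last 30 coding bases of another Vκ site, and 0 in those of the site they were joined to. The Vκ end behind them had lost at least 10 bases in 97.9% ± 0.365 and 93.5% ± 9.52 of cases. The 18 bp printed for Igkv8-21 are also the coding end of Igkv8-27. The joint printed for Igkv8-21 was read 42, 16 and 25 times in arrested and 2, 1 and 2 times in cycling libraries. From Jκ1 through the first bases credited to Igkv8-21, it equals the joint printed for Igkv8-27. Whether such reads hold an insertion, or are joints to a Vκ site assigned in part to another, was not tested. The same question applies to the classes of insertions over 5 bp and of Vκ ends that lost over 10 bases.

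Loss from the Vκ end peaked at 3 bases in both states. That peak held 28.9%, 29.1% and 28.8% of coding joints in arrested and 25.1%, 22.6% and 26.03% in cycling libraries. Untrimmed Vκ ends made up 17.7%, 17.7% and 18.1% against 19.1%, 19.3% and 16.8%, with overlap. Ends that lost 4 to 10 bases were less common in arrested cells (20.5% ± 0.0945 against 22.9% ± 2.08), without overlap, but with distinct joints they were more common there (34.7% against 31.9%, and 34.97% against 31.9% with arrested libraries thinned), also without overlap. Ends that lost 1 to 3 bases were more common in arrested cells with copies included (58.4% ± 0.208 against 55.2% ± 3.01), without overlap, but less common there among distinct joints (28.1% against 41.8%, thinned 36.97% against 41.8%), also without overlap. Ends that lost over 10 bases were 1.99% ± 0.204 against 1.31% ± 0.275 with copies included and 23.3% against 9.02% of distinct joints, both without overlap, but overlapped at 9.72% against 9.02% with arrested libraries thinned.
The mean loss was 2.70 ± 0.0335 bases in arrested and 2.58 ± 0.0810 in cycling cells, but without insertions over 5 bp the difference was -0.0752 bases, so its direction rests on those joints. Over distinct joints it was 7.01 against 4.23 bases, and 4.53 against 4.23 with overlap when arrested libraries were thinned. The same holds for joints within 10 bp of the break, at 98.0% ± 0.204 and 98.7% ± 0.275: without the insertions over 5 bp they made up 99.7% in arrested and 99.3% in cycling cells, again without overlap.
At the Jκ1 end, the bait, arrested cells kept slightly more sequence. Untrimmed Jκ1 ends made up 41.02%, 41.5% and 41.4% of arrested and 37.0%, 39.2% and 39.3% of cycling coding joints, and ends that lost over 3 bases 3.93%, 3.92% and 3.90% against 6.54%, 5.48% and 5.91%. The mean loss was 1.24 ± 0.00510 and 1.36 ± 0.0620 bases. With distinct joints counted the order turned (difference in mean loss 0.290 bases, in untrimmed ends -3.33 percentage points, both without overlap), and with arrested libraries thinned as well the groups overlapped (0.0317 bases and 0.998 percentage points).

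**Figure D4:**
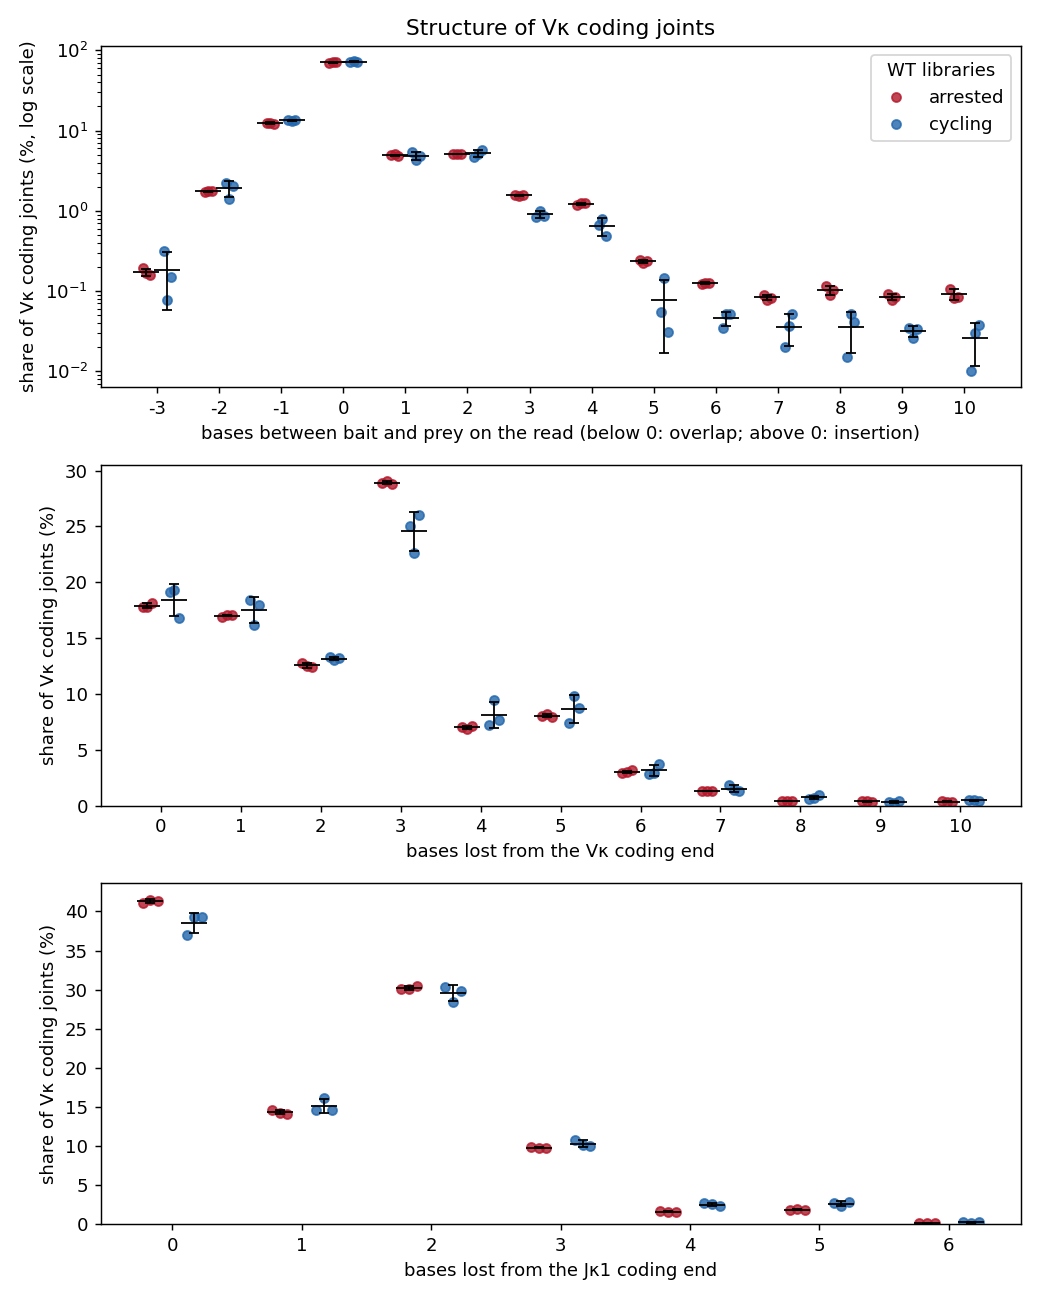
Structure of Vκ coding joints as shares (%) of all joints, copies included: bases between bait and prey on the read (top, log scale, overlaps below 0), bases lost from the Vκ end (middle) and from the Jκ1 end (bottom). Points are libraries and black marks the mean ± SD; both groups peak at direct joints, at 3 bases lost from Vκ and at 0 from Jκ1, and insertions of 3 bp and more are higher in arrested libraries.

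Joints in which the Vκ reading frame continued into Jκ1 made up 47.8%, 48.3% and 48.6% of arrested and 44.5%, 45.6% and 43.7% of cycling coding joints at annotated genes. Among direct joints alone the shares were 57.2%, 57.9% and 57.9% against 51.2%, 53.0% and 52.0%. Both differences were free of overlap. With distinct joints counted the in-frame share was 35.1% in arrested and 37.5% in cycling cells, with overlap, and with arrested libraries thinned it was 34.3% against 37.5%, lower in arrested cells without overlap. Joints with a 1-bp overlap or a 1 to 2-bp insertion were in frame less often in both states, at 20.8% ± 0.223 and 22.1% ± 1.76 for the overlap and 18.5% ± 0.360 and 21.7% ± 3.28 for the insertion, with overlap. Joints with a 3 to 5-bp insertion were in frame less often in arrested cells (34.7% ± 1.24 against 42.7% ± 3.52) and those with a longer one more often (44.3% ± 0.695 against 39.1% ± 2.99), both without overlap.
Hybrid joints, in which the Jκ1 coding end met a Vκ signal end, were rare in both. They numbered 855, 640 and 745 in arrested and 103, 267 and 115 in cycling libraries, or 0.236%, 0.186% and 0.215% against 0.511%, 0.979% and 0.391% of Vκ junctions. Their share was lower in arrested cells without overlap, but with distinct joints counted it was 1.16% in arrested and 1.11% in cycling cells, with overlap. The difference of -0.414 percentage points was -0.238 without cycling replicate 2. With the prey called coding or signal by its side of the break in place of its strand, the share was 1.48% in arrested and 2.59% in cycling cells, without overlap.

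Within the Jκ region, here up to 2 kb to each side of the Jκ1 break, the kind of joint differed more than the total. The region held 2.98%, 3.70% and 3.51% of junctions in arrested and 5.35%, 3.60% and 3.86% in cycling libraries, with overlap. Joints of the Jκ1 end to the sequence across its own break in germline direction numbered 642, 688 and 513 in arrested and 448, 396 and 343 in cycling libraries. That was 0.164% ± 0.0238 and 1.45% ± 0.469 of junctions, and 0.368% ± 0.0306 and 1.36% ± 0.249 of distinct junctions, both without overlap.
Joints of the Jκ1 coding end to the other Jκ segments were mostly to coding ends in cycling and mostly to signal ends in arrested cells. Jκ2 to Jκ5 signal joints numbered 8554, 10613 and 10265 in arrested and 248, 202 and 255 in cycling libraries, and coding joints 2200, 2167 and 2108 against 519, 495 and 640. The signal share of these joints was 81.8% ± 2.00 in arrested and 29.9% ± 2.09 in cycling cells (exact permutation p = 0.1), and 65.7% against 37.5% with distinct joints counted, again without overlap.
Jκ4 supplied most coding joints in both states, 1757, 1702 and 1668 in arrested and 471, 474 and 613 in cycling libraries. Signal joints were spread more evenly in arrested cells, with means of 3360 at Jκ2, 3785 at Jκ4 and 2666 at Jκ5. Igkj3, whose heptamer reads TACAGTG in place of CACAGTG, had 12 coding joints in 1 arrested library and 0 joints in the other 5 libraries.

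**Figure D5:**
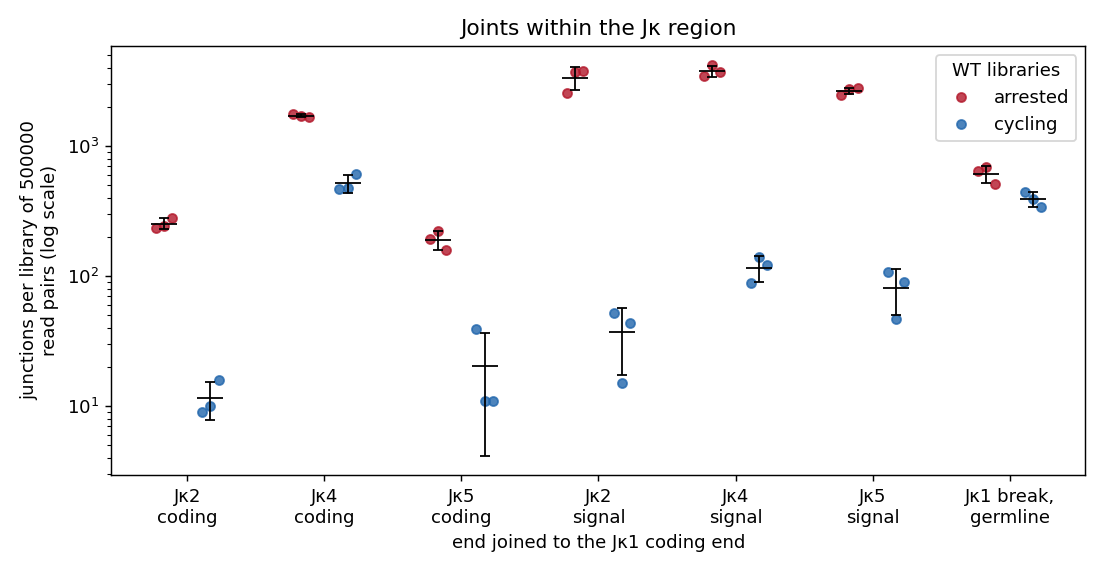
Joints of the Jκ1 coding end within the Jκ region, as junctions per library of 500000 read pairs (log scale); points are libraries and black marks the mean ± SD. The gap between groups is widest for signal joints, with means of 3360 against 37 at Jκ2, and narrowest for joints at the Jκ1 break, 614 against 396.

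Beyond the Jκ region, a heptamer in the Jκ-Cκ intron took most of the remaining Igκ junctions. The sequence is shown because it, and not a Jκ segment, was the main partner there; the heptamer is in capitals.
Jκ-Cκ intron heptamer, chr6:70674988-70675051, plus strand: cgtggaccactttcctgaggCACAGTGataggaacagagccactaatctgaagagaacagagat
It lies in the intron, 1087 bp past Igkj5 and 1421 bp before Igkc, the Cκ gene segment. Preys read away from the heptamer on its coding side, most often from position 70675004 on the minus strand, numbered 8142, 7980 and 7721 in arrested and 857, 1344 and 809 in cycling libraries, from 147, 152 and 147 and from 56, 41 and 39 distinct joints. Igκ junctions between the Jκ region and 30 kb past Igkc made up 2.46%, 2.42% and 2.35% of arrested and 4.38%, 5.17% and 3.07% of cycling junctions, so their share was lower in arrested cells without overlap.
Past Igkc, a further CACAGTG lies on the minus strand, with 70701768 as its lowest position. Junctions at its signal side were most often at position 70701774, which is 29218 bp from Jκ1. Joints there, to either side of the break, numbered 171, 142 and 125 in arrested and 6, 0 and 0 in cycling libraries. In arrested cells that was 0.443, 0.384 and 0.338 per 1000 junctions, and in cycling replicate 1 it was 0.264. With each read taken as independent, a count of 0 allows up to 0.0989 per 1000 in cycling replicate 2 and 0.0934 in replicate 3. Reads were not independent: these 2 libraries held 17.2 and 17.6 copies per distinct Vκ joint, and the 6 reads of replicate 1 came from 1 distinct joint. The limits are therefore too low, and they do not place the cycling rates below the arrested ones.

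Junctions off chromosome 6, the interchromosomal translocations, numbered 253, 284 and 334 in arrested and 47, 110 and 64 in cycling libraries. Per library of equal read pairs, the base of the paper's translocation frequency, they were more frequent in arrested cells, at 290 ± 40.9 against 73.7 ± 32.6, without overlap. Arrested libraries held on average 13.2 times the junctions of cycling libraries, and the direction turned with junctions as the base. Off-chromosome-6 junctions were then less frequent in arrested cells, at 0.656, 0.768 and 0.903 against 2.07, 3.63 and 1.99 per 1000 junctions, without overlap. They came from 140, 159 and 155 and from 30, 44 and 25 distinct joints, at which level the rates were closer, 11.8 ± 1.15 against 17.9 ± 5.84 per 1000 distinct junctions, without overlap. Without insertions over 5 bp the rates were 0.622 against 1.62 per 1000 junctions, again without overlap. With an insertion between the ends in 49.1% to 56.9% of arrested and 60.9% to 95.7% of cycling cases outside antigen receptor loci, and direct in 12.9% to 30.1% and 0 to 28.2%, they were less often direct than Vκ joints in every library. These shares took overlaps and insertions of any length, those of Vκ joints only up to 20 bp. Both include copies, and the cycling values came from 29, 44 and 25 distinct joints, whose shares were not computed.
Junctions in other antigen receptor loci, whose segments carry the same signals, numbered 21, 17 and 58 in arrested and 1, 0 and 0 in cycling libraries. Igh gave 13, 13 and 16 in arrested and 0 in each cycling library, and Igl, the λ light chain locus, gave 6, 4 and 40. The arrested Igh rate was 0.0337 to 0.0432 per 1000 junctions. Even with reads taken as independent, a count of 0 in cycling libraries allows 0.0934 to 0.132 per 1000, which is higher. A difference in rate was therefore not detectable at this depth. The 58 in arrested replicate 3 came from 10 distinct joints. Chromosome 6 outside Igκ held 82, 63 and 50 junctions in arrested and 2, 2 and 3 in cycling libraries, at most 0.0213% of the junctions of any library.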

How the data were processed

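The deposited junction lists give 1 junction per line on mm9 and were used as the authors made them: demultiplexed, trimmed, sampled to 500000 read pairs, mapped with duplicates kept (Bowtie2 is named in the submitters' processing notes) and completed with bait-region junctions by their own script (343 to 681 lines a library). The version of Bowtie2 is not given in the sources used here. The lists hold positions, strands and read offsets and no other unit; all percentages, rates and log2 values were computed here.

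Samples were grouped by their treatment and bait labels. The study states 3 biological repeats; the labels give no replicate numbers, so p-values measure the spread between these libraries. Vκ break sites (138, 93 of them beside a gene of GENCODE vM1) were positions with at least 30 junctions pooled over the 9 signal end bait libraries of arrested WT cells, inhibitor-treated ones included, no higher position within 50 bp and CAC next. A junction went to the nearest site within 200 bp, structure was read from overlaps or insertions of up to 20 bp, and trimming within 100 bp. Measures were compared with exact permutation tests, and site usage with limma 3.58.1 in R 4.3.3 (log2 of junctions per 1000 Vκ junctions + 0.1, mean of at least 1 per 1000), on simulated data recovering 80% of 30 sites changed by 1.5 on the log2 scale among 93. The simulation gave a site the same SD in both groups before counts were drawn. The real groups differed in SD, so this recovery need not hold for them. Other steps ran in Python 3.11.15. Named sites were the 10 largest rises and 10 largest falls past the threshold without overlap and the 6 most used sites of each group. Groups, lists and tests were chosen with earlier results of these data known. Alternatives were distinct joints, other windows, filters and pseudocounts, voom, thinning, single libraries left out and, added after the data were seen, single runs, no insertions over 5 bp, distinct joints of thinned libraries, and the signal end bait. The other 30 lists of the series were not used.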

Additional observations from a re-analysis of the deposited data

Results flagged for a closer look

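The change from cycling to arrested cells differed between baits at 26 of the 97 tested sites (26.8%; limma interaction over 12 libraries, adjusted p below 0.05). With the Jκ1 signal end bait the median log2 change was 2.04 over the 38 DEL sites and -0.55 over the 59 INV sites, against 0.66 and -0.05 with the coding end bait. The log2 change was lower with the coding end bait at 14 DEL sites and 1 INV site and higher at 11 INV sites. Igkv1-135 fell with the coding end bait and had a log2 change of 1.95 with the signal end bait (difference -2.85, adjusted p = 0.00181). The cause was not tested.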

How the results depend on the processing

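Of 195 values recomputed under alternatives other than leaving out a library, 158 were classed as unchanged. These kept their direction and their side of the threshold, overlapped in both settings whatever their direction, or were counts of sites of similar size. Differences are arrested minus cycling, in percentage points unless stated. With distinct joints counted, the difference turned for the hybrid share (0.0563), the in-frame share (-2.42), the shares at 0.0 to 0.5 Mb (0.0565) and 1.5 to 2.0 Mb (-0.0442), mean Jκ1 loss (0.290 bases) and untrimmed Jκ1 ends (-3.33); the share at 0.5 to 1.0 Mb overlapped (1.18), and the groups separated for the Jκ region share (-0.616), 1 to 2-bp insertions (5.63) and untrimmed Vκ ends (-3.01). Arrested libraries thinned to the cycling mean had 9.66 fewer copies per distinct joint than cycling libraries, the reverse of the full libraries (-9.66). With distinct joints and thinned arrested libraries together, added after the data were seen, the in-frame share turned without overlap (-3.26); the 1-bp overlap share (0.319) and mean Jκ1 loss (0.0317 bases) turned with overlap; the hybrid (-0.0664), overlap (-0.0803) and over-5-bp insertion (0.00154) shares, mean Vκ loss (0.298 bases), the share within 10 bp (-0.701) and untrimmed Jκ1 ends (0.998) overlapped; and 1 to 2-bp insertions separated (2.68). The share of untrimmed Vκ ends also turned with distinct joints and thinned arrested libraries, at 15.38% in arrested and 13.88% in cycling cells. It overlapped there as it did with all junctions, so it was classed as unchanged. Without insertions over 5 bp the deletional share separated (2.60), the direct share overlapped (-0.442), and mean Vκ loss (-0.0752 bases) and joints within 10 bp of the break (0.465) turned. With joints within 10 bp only, direct (-0.682) and overlap (-0.974) shares overlapped; with a 20-bp trimming window the share within 10 bp overlapped (-0.460). In the larger run alone the deletional share separated (2.38). In the smaller run alone the hybrid share (-0.359), off-chromosome-6 rate (-1.22 per 1000), chromosome 6 outside Igκ (0.0172), share at 1.5 to 2.0 Mb (0.518) and mean Vκ loss (0.118 bases) overlapped, 10 sites fell, and no log2 off-chromosome-6 rate could be had, since 1 cycling library had 0 there. Per 100 read pairs the Jκ region turned and separated (2.31). A pseudocount of 1 gave 29 rises. The cause of these changes was not tested.

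Leaving out 1 library at a time gave 3 to 48 called sites, 1 to 29 that rose and 2 to 20 that fell; the deletional difference ran from 1.69 to 3.25, the Jκ region difference from -1.21 to -0.335 and that of untrimmed Vκ ends from -1.37 to -0.0980. Among named sites, the log2 change of Igkv10-95 was 0.0084 with distinct joints, and that of Igkv4-50, which overlapped, ran from -0.24 to 0.043 without 1 cycling library at a time (0.028 without replicate 1 and 0.043 without replicate 3). No paired analysis was possible because the labels give no replicate numbers. Cycling libraries hold fewer Vκ junctions (20163 to 29420), which limits little-used sites there.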

Other observations

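Between the last Vκ site and the Jκ region, where no break site was defined, arrested libraries held 2162, 1875 and 1722 junctions and cycling libraries 248, 253 and 384. Nearly all were read on the minus strand, 98.8% to 99.3% in arrested and 100% in each cycling library. Their share of junctions was lower in arrested cells (0.560%, 0.507% and 0.465% against 1.09%, 0.834% and 1.20%), without overlap.

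Past Igkc, a plus-strand cluster around position 70698855 of chromosome 6, with no CACAGTG on either strand within 15 bp, held 536, 403 and 496 junctions in arrested and 35, 165 and 69 in cycling libraries. A second, around position 70694082 and directly after a minus-strand CACAGTG whose lowest position is 70694075, held 424, 219 and 193 against 46, 35 and 84. For both clusters these are counts and not rates: arrested libraries held on average 13.2 times the junctions of cycling libraries.

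The most read Vκ joint of each library made up 0.878%, 0.886% and 0.917% of Vκ junctions in arrested and 1.21%, 1.17% and 1.86% in cycling libraries.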
